A study of Mus musculus with 9 samples.

Results

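The leptin feedback circuit was followed through 9 genes in brown adipose tissue: the hormone Lep, its receptor Lepr, the kinase Jak2, the transcription factor Stat3, the feedback inhibitors Socs1, Socs2, Socs3 and Cish, and the phosphatase Ptpn1. They were taken by symbol from 49315 listed genes, and all 9 were among the 14747 genes with enough reads to be tested. The set was chosen by its place in the circuit with 2 measured values in view, the CPM difference between the treatment groups and the correlation with Lep, so both are given as description without a test. All animals were male C57Bl/6J mice, 14 weeks old, acclimated for 3 weeks, and kept singly on a 60% high fat diet until they weighed about 50 g. They were not kept at thermoneutrality. For 28 days, 4 mice received vehicle and 5 received cotadutide, a peptide that activates both the GLP-1 receptor and the glucagon receptor, by daily injection under the skin. RNA came from 30 mg of whole brown fat, with 1 library per mouse, so all cell types of the tissue contributed to each value. The series asked which genes differed between the treatments.

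Leptin is secreted by adipocytes in proportion to fat stores and acts on a cytokine receptor without enzyme activity of its own. The receptor carries the kinase JAK2, which phosphorylates STAT3, and STAT3 enters the nucleus and switches on genes that include Socs3. SOCS proteins and CIS, the product of Cish, bind the receptor or the kinase and close the loop, and the phosphatase PTP1B, the product of Ptpn1, removes phosphate from JAK2. The same inhibitors serve growth hormone, interleukin and interferon receptors. In obesity this circuit is best known for leptin resistance, mostly in the hypothalamus, and fat cells are chiefly the source of the hormone.

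Library totals ranged from 16.1 to 25.1 M counts (M, mega) in vehicle mice and from 10.8 to 19.5 M in cotadutide mice (exact two-sided permutation p = 0.119). Levels are counts per 1 M of the scaled library total (CPM), and means carry the SD over 4 vehicle or 5 cotadutide mice. The 7 brown adipocyte markers, among them Ucp1 at 3760 to 6690 CPM over the 9 mice, were all detected. None was at 0 in either group. Their sum was 5520 to 8350 CPM in vehicle and 7870 to 10300 CPM in cotadutide mice, with overlap. It did not pass after adjustment (exact permutation p = 0.0397, Benjamini-Hochberg 0.0893 over 9 lists). Summed markers of adipocytes lay at 15600 to 17300 CPM in vehicle and 19700 to 23500 CPM in cotadutide mice, without overlap (exact permutation p = 0.00794, the smallest that 4 against 5 mice can give, Benjamini-Hochberg 0.0357 over 9 lists). Fabp4 alone gave most of the adipocyte sum, at 10000 ± 880 CPM (SD, n = 4) in vehicle and 13500 ± 1180 CPM (SD, n = 5) in cotadutide mice. Summed skeletal muscle markers ran the other way, at 20600 to 45500 CPM against 4890 to 18200 CPM (exact permutation p = 0.00794, Benjamini-Hochberg 0.0357). In bulk tissue, fewer cells of a type and less RNA per cell cannot be told apart.

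Promoter windows of 300 bases from RefSeq (GRCm38.p6, the assembly that mm10 displays), 250 before the start and 50 after it, matched 8 of the 9 genes (not Socs2) in 9 windows. They were searched on both strands for the STAT motif TTCNNNGAA, the C/EBP motif TTGCNNAA and TATAAA, and no hits overlapped. Over all 32851 windows of that length these occurred in 8.30%, 10.8% and 13.6%. Among the 9 genes the STAT motif was found in the windows of Socs3 and Cish, and the C/EBP motif in those of Lep, Ptpn1 and Lepr. TATAAA was in none of the 9 windows. Such a match is a run of letters and not a shown site of binding. The 3 stretches below are printed because they hold the motifs found for the hormone and its inhibitors; they read 5′ to 3′ on the gene's strand and capitals mark the motif. The Lep stretch is the 250 bases before the start (chr6:29059971-29060220, plus strand), with the C/EBP motif TTGCGCAA 55 bases before the start. The Socs3 stretch is also the 250 bases before the start (chr11:117969367-117969616, minus strand), with the STAT motif TTCTTAGAA 154 bases before it. The Cish stretch is the first 30 bases after the start (chr9:107296659-107296688, plus strand), with the STAT motifs TTCCTGGAA at base 1 and TTCTTGGAA at base 12. The start is that of the RefSeq window. For Socs3 and Cish it lies inside the gene span given below, so the Socs3 stretch and its motif are within that span.
Lep: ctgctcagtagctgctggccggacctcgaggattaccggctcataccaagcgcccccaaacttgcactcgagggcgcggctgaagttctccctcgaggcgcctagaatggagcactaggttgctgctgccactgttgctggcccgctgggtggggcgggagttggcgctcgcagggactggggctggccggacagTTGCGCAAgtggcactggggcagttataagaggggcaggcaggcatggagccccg
Socs3: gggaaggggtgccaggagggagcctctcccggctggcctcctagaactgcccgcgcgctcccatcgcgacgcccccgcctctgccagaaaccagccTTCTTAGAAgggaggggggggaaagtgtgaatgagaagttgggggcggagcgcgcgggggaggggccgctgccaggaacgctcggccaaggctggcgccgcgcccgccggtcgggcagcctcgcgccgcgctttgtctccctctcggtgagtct
Cish: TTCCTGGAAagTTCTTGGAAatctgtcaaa

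Of the 9 genes, 2 were past the threshold of the fit over all genes (edgeR quasi-likelihood, Benjamini-Hochberg adjusted p of 0.05), Lep and Jak2, both lower under cotadutide. Over all tested genes 18.7% were past it, 9.34% lower and 9.31% higher. The same 2 genes were those whose groups did not overlap, against 15.8% of all tested genes, or 7.79% without overlap and lower. Jak2 was not past the threshold when vehicle mouse 1, 2 or 3 or cotadutide mouse 2 was left out, nor in a fit with the mouse numbers as a block. Nothing is read from these counts in either direction, since the group difference helped to choose the genes. The median log2 fold change of the 9 genes was -0.22, against 0.0 over all tested genes.

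**Figure D1:**
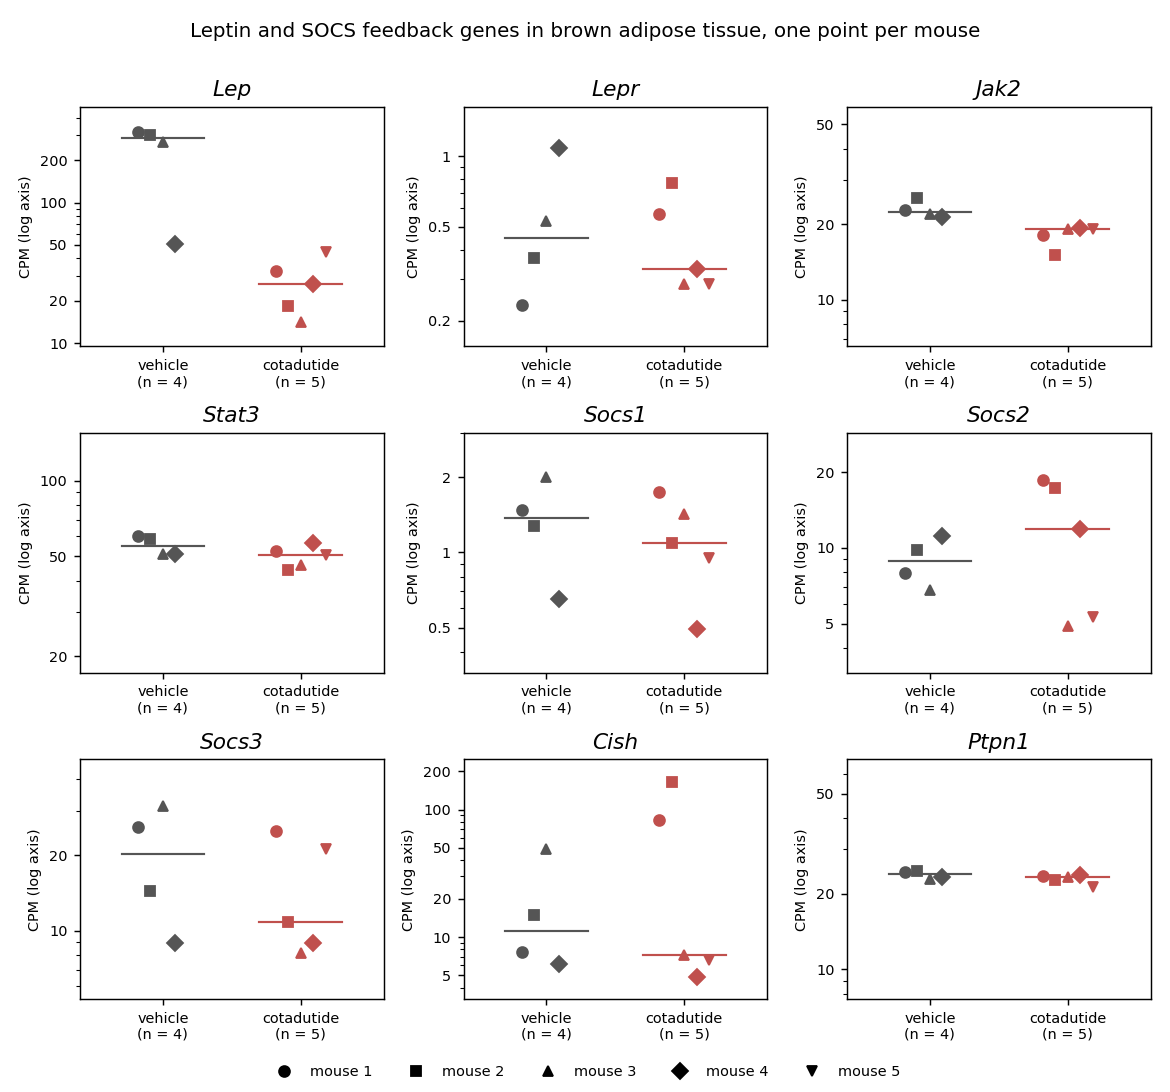
CPM of each of the 9 genes (log axis, scale set per gene) in 4 vehicle and 5 cotadutide mice, 1 point per mouse with the symbol giving its number in its group and the line the group median. Lep and Jak2 are the genes without overlap between the groups, Cish spans 4.90 to 165 CPM within the cotadutide mice, and Ptpn1 stays within 21.2 to 24.6 CPM.

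Lep, the ligand, lies on chromosome 6 from 29060220 to 29073877 (plus strand, mm10, ENSMUSG00000059201). In vehicle mice 1 to 4 its level was 320, 300, 271 and 50.3 CPM. In cotadutide mice 1 to 5 it was 32.5, 18.3, 14.2, 26.5 and 44.3 CPM. The groups did not overlap, but vehicle mouse 4 stood far below its group and only just above cotadutide mouse 5. The means were 235 ± 125 CPM (SD, n = 4) and 27.1 ± 11.9 CPM (SD, n = 5), a level 8.71 times lower under cotadutide (log2 fold change -3.12, SE 0.49). Without vehicle mouse 4 the log2 fold change was -3.46.

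Adipocyte markers as a whole were not lower with Lep: by edgeR's adjusted p, 2 of the 7 rose, 0 fell and 5 did not pass. Adipoq, which encodes the hormone adiponectin, was 774 ± 110 CPM (SD, n = 4) in vehicle and 1210 ± 133 CPM (SD, n = 5) in cotadutide mice and rose 1.56-fold (edgeR adjusted p = 0.0147). White adipocyte markers summed to 327 to 696 CPM in vehicle and 161 to 540 CPM in cotadutide mice, which did not pass (exact permutation p = 0.0794, Benjamini-Hochberg 0.119). Of these 9 markers, 5 had enough reads for the test, and Npr3 and Mest fell while Hoxc8, Retn and Nnat did not pass. Retn lay in the opposite direction, at 58.5 ± 21.0 CPM (SD, n = 4) in vehicle and 101 ± 47.5 CPM (SD, n = 5) in cotadutide mice. Its groups overlapped, and its log2 fold change was 0.79, against -0.12 for Hoxc8 and -0.18 for Nnat. Npr3, the natriuretic peptide clearance receptor, had 377, 348, 348 and 96.5 CPM in vehicle mice 1 to 4. In cotadutide mice it had 48.5 to 73.1 CPM, so vehicle mouse 4 was the low vehicle mouse here as for Lep. Mest, an imprinted gene linked to adipocyte growth, followed with 29.0, 18.2, 34.1 and 3.84 CPM in vehicle mice and 2.57 to 7.62 CPM in cotadutide mice. Of the other white depot markers, Hoxc9, Hoxc10, Tcf21 and Wt1 were at or under 0.309 CPM in every mouse, whereas Hoxc8, a positional marker like Hoxc9, was at 9.81 to 20.9 CPM. Vehicle mouse 4 also had the highest muscle marker sum, 45500 CPM. The part of these markers in the Lep difference was not tested.

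Lepr, the receptor (ENSMUSG00000057722, chromosome 4 from 101717404 to 101815352, plus strand), was close to the limit of detection in both groups. The deposited counts were 6, 9, 9 and 20 in vehicle mice 1 to 4 and 11, 12, 4, 6 and 3 in cotadutide mice 1 to 5. Pooled over the mice this was 0.515 CPM for vehicle (exact Poisson 95% interval 0.374 to 0.691) and 0.463 CPM for cotadutide (0.324 to 0.641), intervals that cover counting error only. The vehicle mean was 0.554 ± 0.372 CPM (SD, n = 4) and the cotadutide mean 0.447 ± 0.215 CPM (SD, n = 5), with a log2 fold change of -0.22 (SE 0.48). At this depth no difference was detectable, and counts per gene do not separate the long, signalling form of the receptor from the short ones. Leprot, whose protein limits display of the receptor at the cell surface, was read at 36.9 ± 4.09 CPM (SD, n = 4) and 36.0 ± 1.53 CPM (SD, n = 5) and did not pass (edgeR adjusted p = 0.792).

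Jak2, the receptor's kinase (ENSMUSG00000024789, chromosome 19 from 29251828 to 29313080, plus strand), had 22.7, 25.4, 21.9 and 21.4 CPM in vehicle mice 1 to 4. Cotadutide mice 1 to 5 had 18.2, 15.1, 19.2, 19.4 and 19.2 CPM. The groups did not overlap, although the lowest vehicle mouse and the highest cotadutide mouse were close, and cotadutide mouse 2 was low. The means were 22.9 ± 1.77 CPM (SD, n = 4) and 18.2 ± 1.80 CPM (SD, n = 5), 1.26 times lower (log2 fold change -0.33, SE 0.10). Over the fits that left out 1 mouse its log2 fold change ran from -0.38 to -0.27.

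Stat3, the transcription factor downstream of the kinase (ENSMUSG00000004040, chromosome 11 from 100885098 to 100939540, minus strand), ranged from 51.0 to 60.3 CPM in vehicle and from 44.1 to 56.4 CPM in cotadutide mice. The ranges overlapped, with means of 55.2 ± 4.93 CPM (SD, n = 4) and 49.9 ± 4.89 CPM (SD, n = 5) and a log2 fold change of -0.15 (SE 0.09). It overlaps its neighbour Stat5a at one end, where reads of the 2 genes could be shared. Ptpn1, the phosphatase (ENSMUSG00000027540, chromosome 2 from 167932057 to 167979385, plus strand), was the steadiest of the 9 genes. It had 24.5, 24.6, 22.8 and 23.2 CPM in vehicle mice 1 to 4 and 23.6, 22.6, 23.2, 23.8 and 21.2 CPM in cotadutide mice 1 to 5. The ranges overlapped from 22.8 to 23.8 CPM, with means of 23.8 ± 0.905 CPM (SD, n = 4) and 22.9 ± 1.04 CPM (SD, n = 5), with a log2 fold change of -0.06 (SE 0.07). Of 10136 genes with a mean of at least 5 CPM, 9595 had a larger ratio of highest to lowest vehicle mouse than its 1.08, and 9539 a larger ratio among cotadutide mice than its 1.12.

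Cish, the inhibitor best known as a target of STAT5 below growth hormone and interleukin receptors (ENSMUSG00000032578, chromosome 9 from 107296026 to 107302784, plus strand), differed more between mice than between treatments. Vehicle mice 1 to 4 had 7.58, 14.9, 48.9 and 6.16 CPM. Cotadutide mice 1 to 5 had 82.3, 165, 7.26, 4.90 and 6.57 CPM. Cotadutide mice 1 and 2 and vehicle mouse 3 were high and the other 6 mice low, so each treatment held both kinds. These were not low-count values: cotadutide mouse 2 had 2580 counts of Cish and cotadutide mouse 4 had 89. The ratio of highest to lowest cotadutide mouse was 33.8, and of 10136 genes with a mean of at least 5 CPM 0 had a larger one. Among vehicle mice the ratio was 7.94, and 12 genes had a larger one. The means, 19.4 ± 20.0 CPM (SD, n = 4) and 53.3 ± 70.8 CPM (SD, n = 5), were smaller than their SD, and the log2 fold change was 1.48 (SE 1.21). It was 0.42 without cotadutide mouse 2 and 2.49 without vehicle mouse 3. The gene models Gm17040 and Gm17041 overlap Cish on the opposite strand, and the strand setting of the counting was not given in the sources used here.

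Socs2, the inhibitor of growth hormone signalling (ENSMUSG00000020027, chromosome 10 from 95385362 to 95417180, minus strand), had 7.93, 9.83, 6.78 and 11.2 CPM in vehicle mice 1 to 4. Cotadutide mice 1 to 5 had 18.6, 17.4, 4.91, 11.9 and 5.33 CPM. Cotadutide mice 1 and 2, the high Cish mice of that group, were also its highest for Socs2, whereas vehicle mouse 3, with the highest Cish of its group, was the lowest of its group for Socs2. The cotadutide range enclosed the vehicle range, with means of 8.94 ± 1.98 CPM (SD, n = 4) and 11.6 ± 6.46 CPM (SD, n = 5) and a log2 fold change of 0.40 (SE 0.37).

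Socs3, the STAT3-induced inhibitor that blocks the leptin receptor (ENSMUSG00000053113, chromosome 11 from 117966079 to 117970047, minus strand), had 25.8, 14.4, 31.4 and 8.91 CPM in vehicle mice 1 to 4. Cotadutide mice 1 to 5 had 25, 10.8, 8.18, 8.92 and 21.1 CPM. High and low mice stood in both groups: vehicle mice 1 and 3 and cotadutide mice 1 and 5 were at 21.1 CPM or more, and the other 5 mice at 14.4 CPM or less. The means were 20.1 ± 10.3 CPM (SD, n = 4) and 14.8 ± 7.73 CPM (SD, n = 5), with a log2 fold change of -0.44 (SE 0.41). Without cotadutide mouse 1 it was -0.77 and without vehicle mouse 3 it was -0.17. Socs1, the inhibitor of interferon receptor kinases (ENSMUSG00000038037, chromosome 16 from 10783808 to 10785536, minus strand), was low, with 0.648 to 2.00 CPM in vehicle and 0.495 to 1.75 CPM in cotadutide mice. Its groups overlapped, with a log2 fold change of -0.23 (SE 0.37).

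**Figure D2:**
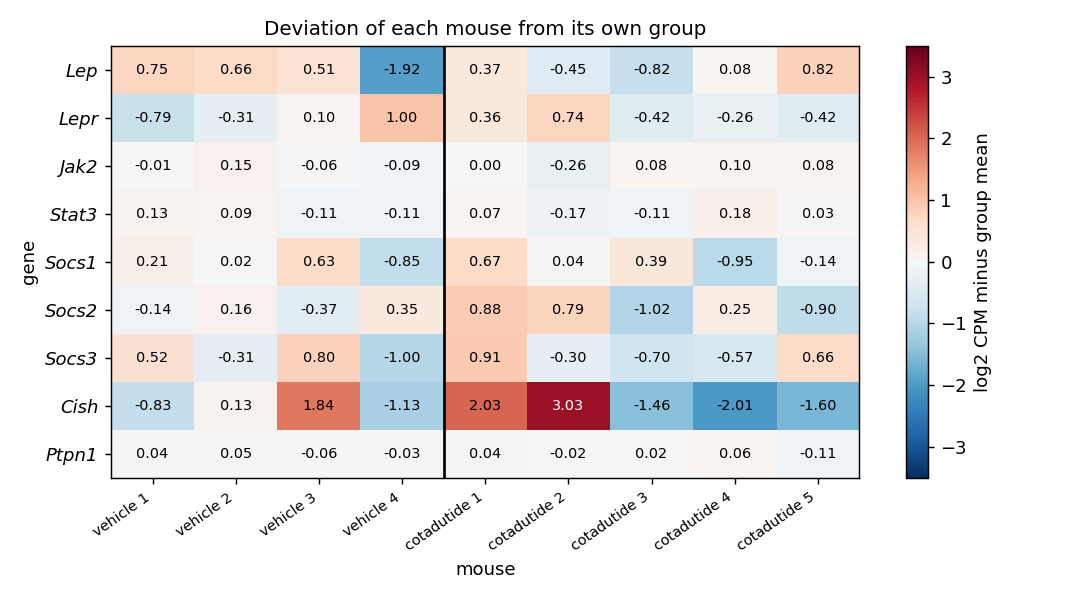
Log2 CPM of each gene (rows) in each mouse (columns) minus the mean of its own treatment group, in colour and as a printed value. Cish holds the widest deviations, from -2.01 to 3.03, vehicle mouse 4 is at -1.92 for Lep and 1.00 for Lepr, and every value of Ptpn1 lies between -0.11 and 0.06.

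Spread between mice differed among the 9 genes. Lep and the inhibitors Socs1, Socs3 and Cish had coefficients of variation of 41.5% to 103% in vehicle and 41.6% to 133% in cotadutide mice. For Lep in vehicle mice the spread came mostly from vehicle mouse 4, at 50.3 CPM beside 271 to 320 CPM in the others. The kinase, the transcription factor and the phosphatase stayed at 3.81% to 8.93% and 4.54% to 9.89%. Socs2 was at 22.1% in vehicle and 55.5% in cotadutide mice. Lepr, at 67.1% and 48.0%, and Socs1 had few counts, so that counting error adds to their spread.

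Levels were compared between genes per kilobase of the exon length in the files (CPM per kb). In vehicle mice Lep led at 70.2 ± 37.3 CPM per kb (SD, n = 4), followed by Socs3 at 6.96 ± 3.56, Stat3 at 5.79 ± 0.517, Jak2 at 4.55 ± 0.353, Ptpn1 at 4.30 ± 0.164 and Cish at 3.02 ± 3.12 CPM per kb. Socs1 at 1.11 ± 0.459, Socs2 at 0.938 ± 0.208 and Lepr at 0.0785 ± 0.0527 CPM per kb closed the order. Lep and Socs3, Stat3 and Jak2, and Socs2 and Lepr differed by more than the larger SD of the pair, and the other neighbours in this order by less. In cotadutide mice Cish at 8.30 ± 11 and Lep at 8.09 ± 3.56 CPM per kb (SD, n = 5) stood first and did not differ beyond their spread. The place of Cish rested on cotadutide mice 1 and 2: its median was 1.13 CPM per kb, and without cotadutide mouse 2 its mean was 3.94 ± 5.93 CPM per kb (SD, n = 4), below Lep, Socs3, Stat3 and Ptpn1. Over all 5 mice, Stat3 at 5.24 ± 0.514, Socs3 at 5.13 ± 2.68, Ptpn1 at 4.13 ± 0.188 and Jak2 at 3.63 ± 0.359 CPM per kb followed, then Socs2 at 1.22 ± 0.678, Socs1 at 0.936 ± 0.390 and Lepr at 0.0634 ± 0.0304 CPM per kb. Here Ptpn1 and Jak2, Jak2 and Socs2, and Socs1 and Lepr were the neighbours that differed by more than the larger SD.

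The correlation with Lep was taken over the 9 libraries after subtracting each group's mean, because Lep itself separated the groups and each group held under 6 mice. Socs3 went with Lep at a Pearson r of 0.77 (Spearman rho 0.65) and Stat3 at 0.58 (rho 0.42). Lepr went against it at -0.67 (rho -0.57), on 3 to 20 counts per library. Jak2 was at 0.40, Socs1 at 0.44, Cish at 0.12, Ptpn1 at 0.05 and Socs2 at -0.16. The values share the scaling of each library, and vehicle mouse 4 and cotadutide mouse 3 are the libraries farthest from the median of Lep. Without these 2 mice r was 0.55 for Socs3, 0.51 for Stat3, -0.71 for Lepr, 0.72 for Jak2 and 0.05 for Socs1. It was then -0.67 for Socs2 and -0.60 for Cish, so these values rested on the 2 mice. Leaving out vehicle mouse 4 alone took Socs1 to -0.20, so its value rested on that mouse. Lepr was at -0.20 without vehicle mouse 4 alone and at -0.85 without cotadutide mouse 3 alone, so its value depended on the mouse left out. With any 1 mouse left out r ran from -0.85 to -0.20 for Lepr and from 0.67 to 0.87 for Socs3. Among the inhibitors themselves, Socs1 and Socs3 had r = 0.67 (0.35 without 2 mice) and Cish and Socs2 r = 0.57 (0.24 without 2 mice).

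The genes most like Lep across mice were ranked by the same centred r among 9714 tested genes with a mean of at least 5 CPM and a function-based name. The 5 highest were Mgl2 (r = 0.991), a lectin of macrophages, Fads3 (0.985), a fatty acid desaturase family member, Trak2 (0.982), an adaptor for mitochondrial transport, Ehd2 (0.979), a protein of caveolae, and Fkbp1a (0.971), an immunophilin. Without vehicle mouse 4 and cotadutide mouse 3 they were at 0.77 to 0.93. Fads3 had 104, 88.7, 90.8 and 27.4 CPM in vehicle mice 1 to 4 and 16.2 to 30.8 CPM in cotadutide mice, so that vehicle mouse 4 lay within the cotadutide range. The 3 lowest were Kctd15 (r = -0.989), Car4 (-0.974), a membrane carbonic anhydrase, and Acot1 (-0.972), an acyl-CoA thioesterase whose reads can be shared with its near-identical neighbour Acot2. Kctd15 had 24.7, 25.8, 27.6 and 46.6 CPM in vehicle mice 1 to 4, and 46.3 to 62.2 CPM in cotadutide mice, the lowest of them in cotadutide mouse 5, which had the highest Lep of its group. These genes were picked for this likeness over all 9 libraries.

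The same ranking for Socs3 and Cish was added after their values were seen. Closest to Socs3 was Fos (r = 0.984), followed by Mcl1 (0.983), Fosb (0.972), Egr1 (0.970) and Zfp36 (0.966). Fos, Fosb and Egr1 encode immediate early transcription factors, Zfp36 an mRNA decay factor and Mcl1 a survival protein. Fos had 491, 178, 406 and 93.8 CPM in vehicle mice 1 to 4 and 237, 74.0, 50.4, 64.8 and 205 CPM in cotadutide mice 1 to 5. The 4 mice with the most Fos were the 4 with the most Socs3. Closest to Cish was Cited2 (r = 0.949), a transcriptional co-regulator, and among the genes most opposite to it was Bcl6 (r = -0.957), a transcriptional repressor. Bcl6 had 91.8, 91.5, 44.0 and 108 CPM in vehicle mice 1 to 4 and 45.3, 37.6, 112, 91.4 and 99.6 CPM in cotadutide mice 1 to 5. The 3 mice with the least Bcl6 were the 3 with the most Cish, and they came from both treatments. Without the 2 mice farthest from the Cish median r for Bcl6 was -0.89.

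**Figure D3:**
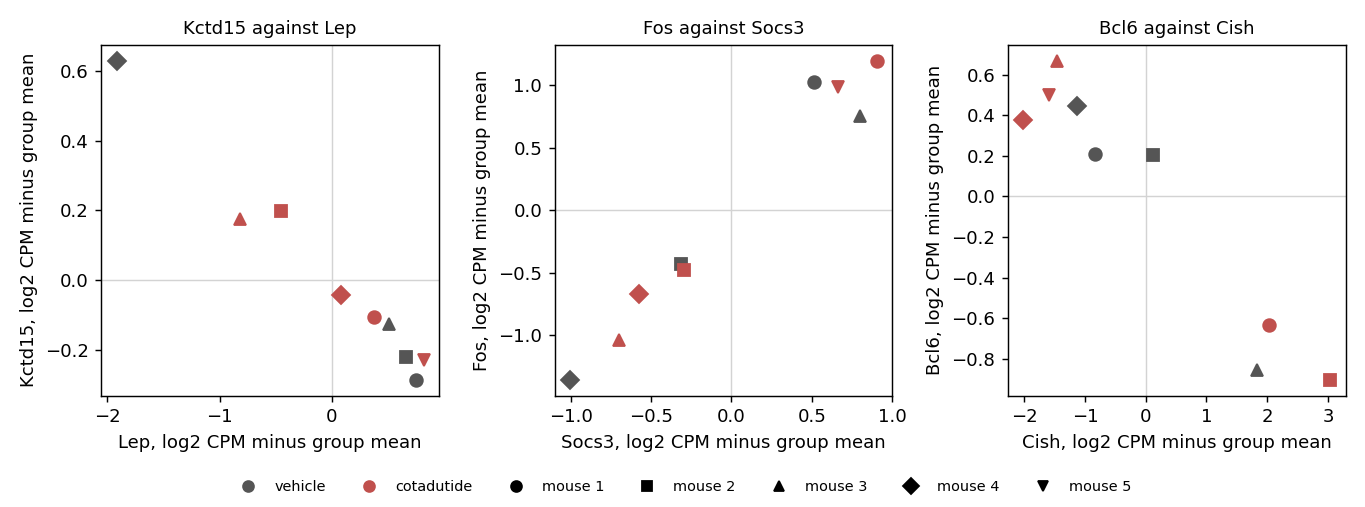
Log2 CPM minus group mean of Kctd15 against Lep, Fos against Socs3 and Bcl6 against Cish, 1 point per mouse, with colour for the treatment and symbol for the mouse number. Vehicle mouse 4 stands alone at the left of the Lep panel, 4 mice sit high together in the Socs3 panel, and 3 mice sit low in Bcl6 and high in Cish; the pairs were chosen for their likeness (r = -0.989, 0.984 and -0.957).

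Around the 9 genes, 76 of 77 other genes of the pathway could be tested (not Stat4), of which 7 rose and 8 fell by edgeR's adjusted p and 61 did not pass. That is 19.7% called against 18.7% of all tested genes, and their median log2 fold change was -0.05 against 0.0. By library totals alone, without composition scaling, all tested genes split into 1046 higher and 1658 lower in place of 1373 and 1378. The count of pathway genes rested on single mice: edgeR called 0 of 76 without vehicle mouse 1 or without vehicle mouse 2, where 20 and 25 had an unadjusted p under 0.05. It called 6 without vehicle mouse 3, 23 without vehicle mouse 4, 5 without cotadutide mouse 2 and 9 without cotadutide mouse 3.

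Of 17 other cytokine receptors of the JAK-STAT family, 1 rose and 0 fell. Il10rb, the shared chain of the interleukin 10 and interleukin 22 receptors, went from 27.5 ± 1.25 CPM (SD, n = 4) to 35.5 ± 3.49 CPM (SD, n = 5), 1.29-fold (edgeR adjusted p = 0.0204). The 2 most abundant did not pass: the growth hormone receptor Ghr was at 223 ± 15.1 and 231 ± 34.6 CPM (edgeR adjusted p = 0.758) and the gp130 chain Il6st at 98.3 ± 3.24 and 99 ± 4.76 CPM (edgeR adjusted p = 0.926). Among the other JAK and STAT genes, Jak1, the kinase of gp130 receptors, was 1.28 times lower at 72.1 ± 4.95 against 92.1 ± 5.87 CPM (edgeR adjusted p = 0.0184). Jak1 thus fell by 0.35 on the log2 scale beside the -0.33 of Jak2. Leaving out each of the 9 mice in turn ended the call of Il10rb in 3 fits and that of Jak1 in 2.

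Of 16 other inhibitors of the pathway, 1 rose and 2 fell. The SOCS family members Socs7 (25.2 ± 1.98 against 17.3 ± 2.49 CPM, 1.45 times lower, edgeR adjusted p = 0.0163) and Socs6 (19.1 ± 1.34 against 14.8 ± 1.97 CPM, 1.30 times lower, edgeR adjusted p = 0.0343) fell without overlap between the groups. Pias4, a SUMO ligase that restrains STATs, rose 1.29-fold (edgeR adjusted p = 0.0382), a call that ended without the low-count filter (edgeR adjusted p = 0.0598) and by library totals alone (0.0559). Of 11 receptor adaptors and handling genes, 1 rose and 1 fell. Irs2, an insulin receptor substrate, rose 1.80-fold from 27.8 ± 3.21 to 50.2 ± 17.5 CPM (edgeR adjusted p = 0.0383), with cotadutide mouse 1 at 25.6 CPM inside the vehicle range. That call ended by limma-voom (adjusted p = 0.0777), without the low-count filter (edgeR adjusted p = 0.165) and in 7 of the 9 fits that left out 1 mouse, all but those without cotadutide mouse 1 or 5. Ptpn11, which encodes the phosphatase SHP2, was 1.23 times lower with overlap between the groups (edgeR adjusted p = 0.041). Of the same 9 fits, 6 ended the call of Ptpn11, 6 that of Pias4, 5 that of Socs6 and 2 that of Socs7.

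Of 17 genes known to respond to STAT3, 1 rose and 3 fell, with a median log2 fold change of -0.47. Ccnd1, which encodes cyclin D1 of the cell cycle, went from 12.5 ± 5.36 to 4.05 ± 1.05 CPM, 3.11 times lower (edgeR adjusted p = 0.0163). Its groups overlapped, with vehicle mouse 4 at 4.97 CPM inside the cotadutide range of 3.01 to 5.61 CPM. Myc fell 1.64 times (edgeR adjusted p = 0.0241) and Mcl1 1.41 times (edgeR adjusted p = 0.0185). Pim1, a kinase that STAT5 also induces, rose 2.36-fold from 39.2 ± 3.33 to 92.6 ± 35.5 CPM without overlap (edgeR adjusted p = 0.0158). Of the 9 fits that left out 1 mouse, 3 ended the call of Ccnd1, 3 that of Myc, 4 that of Mcl1 and 2 that of Pim1. Summed macrophage markers ran beside the genes that fell, at 354 to 590 CPM in vehicle and 215 to 452 CPM in cotadutide mice (exact permutation p = 0.0317, Benjamini-Hochberg 0.0893), and 6 of the 10 markers fell. The part of macrophages in these values was not tested.

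Of 7 transcription factors that act on the Lep gene, 2 rose and 1 fell while Lep itself was lower. Cebpa, a factor of the adipocyte program, rose 1.33-fold from 593 ± 38.3 to 789 ± 72.5 CPM (edgeR adjusted p = 0.0199). Cebpb, an early factor of the same family, rose 1.82-fold from 177 ± 26.9 to 322 ± 92.2 CPM (edgeR adjusted p = 0.0234, but 0.0697 without the low-count filter), and neither overlapped between groups. Fosl2, a FOS family factor, was 1.46 times lower, at 31.6 ± 6.67 against 21.6 ± 1.84 CPM (edgeR adjusted p = 0.0234). Its groups overlapped, with vehicle mouse 4 at 22.3 CPM inside the cotadutide range of 19.3 to 24.2 CPM. Leaving out each of the 9 mice in turn ended the call of Fosl2 in 4 fits, of Cebpb in 4 and of Cebpa in 3. The Lep stretch printed above holds the C/EBP motif TTGCGCAA, and binding to it was not measured here.

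**Figure D4:**
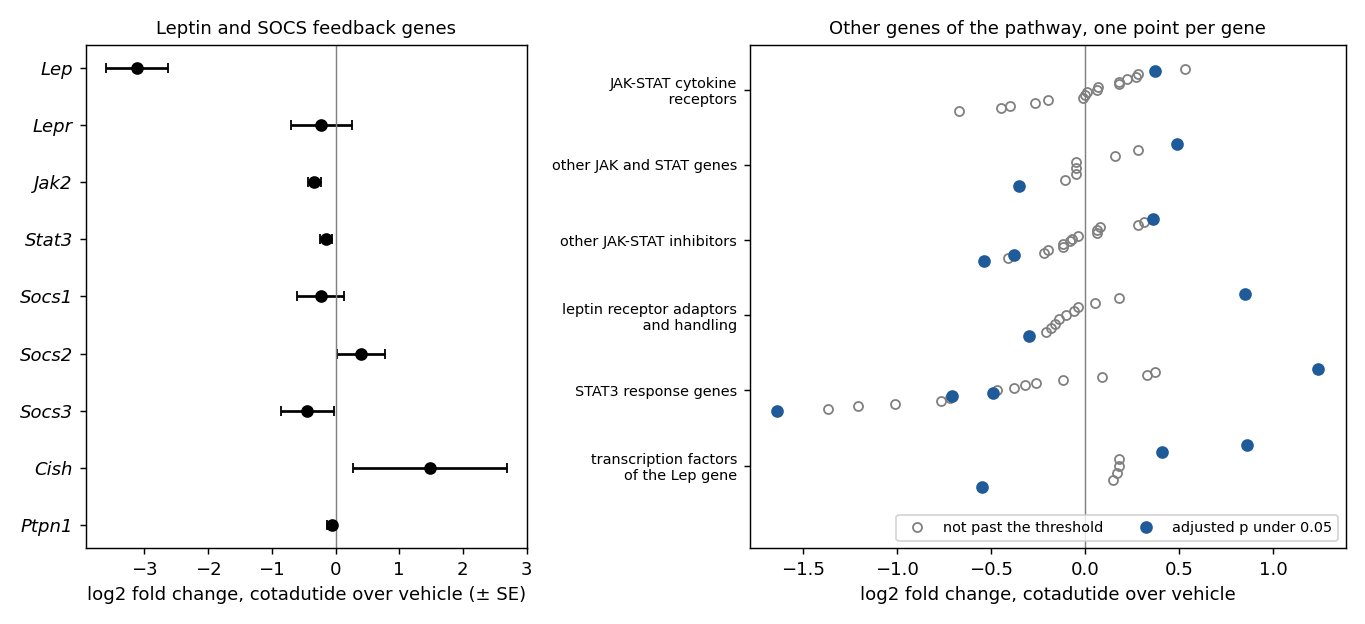
Left, log2 fold change of cotadutide over vehicle for the 9 genes with its SE, where Lep at -3.12 lies farthest from 0 and Cish at 1.48 has the widest SE, 1.21. Right, log2 fold change of each of the 76 other pathway genes by list, filled where the edgeR adjusted p passed 0.05 (7 higher, 8 lower); heights within a row only separate the points.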

How the data were processed

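Polyadenylated RNA of whole brown adipose tissue was sequenced from 4 vehicle and 5 cotadutide mice, with groups and mouse numbers taken from the labels. The authors deposited raw, unnormalised counts, with a file of Ensembl genes for each library. The tools listed in the submitters' processing notes are STAR 2.5.2b, Subread 1.5.2 with featureCounts, Trimmomatic 0.36 and bcl2fastq 2.17, on build mm10. Their settings, the strand and the annotation were not given in the sources used here, so reads of overlapping or antisense genes cannot be told apart.

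Counts were tested with edgeR 4.0.16 under R 4.3.3 (filterByExpr, TMM scaling, robust glmQLFit, glmQLFTest), with Benjamini-Hochberg adjustment over 14747 genes holding 99.87% of counts. IDs without a symbol numbered 345. SE is the size of the log2 fold change over the square root of F. Correlations used log2 CPM with a prior count of 2. Sums were compared by exact permutation (scipy 1.17.1). On simulated counts of 14747 genes for cotadutide against vehicle, the fit recovered 78% of 2-fold and 94% of 8-fold changes. Many calls named above were under 2-fold, a size that these figures do not cover. Each gene was simulated on its own, so they also do not cover the dependence of the calls on single mice. Pairs of libraries within a group differed by more than counting noise (lowest chi-square per degree of freedom 11.49).

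The 9 genes, the pathway lists and the marker lists were chosen with earlier results of these data known. From each pathway list the text names the genes past the threshold, at most 5, or the 2 most abundant where fewer than 2 passed. A result that this rule would name is not reported here. Alternatives were DESeq2 1.42.0, limma-voom (limma 3.58.1), other scalings and filters, a replicate block, and leaving out each mouse.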

Additional observations from a re-analysis of the deposited data

Results flagged for a closer look

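The values were examined in 36 groups of 4 or 5 mice for a mouse far from the rest of its group. In 4 groups 1 was found, where chance gives about 1 group in 20. The measure was the gap to the nearest mouse over the range of the group, 0.715 to 0.965 for those found. Lep in vehicle mouse 4 was not flagged, although it stood far below its group. Jak2 in cotadutide mouse 2 was the lowest of its group at 15.1 CPM, with the other cotadutide mice at 18.2 to 19.4 CPM. The other 3 were marker sums of cotadutide mouse 3, each the highest of its group: 18.4 CPM for T and NK cells, 35.8 CPM for B cells and 729 CPM for endothelial cells. That mouse also had the lowest Lep, 14.2 CPM, and the lowest Socs2, 4.91 CPM, and Socs3, 8.18 CPM, of its group. The part of the immune and endothelial markers in these values was not tested.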

How the results depend on the processing

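As description, the log2 fold change was -3.46 to -2.94 for Lep and -0.38 to -0.27 for Jak2 when 1 mouse was left out. The labels name no pairing by mouse number. Same-numbered mice correlated at -0.04 to 0.135 in their deviations from the group means, and only vehicle mouse 1 matched its own number best. The best matches were themselves at 0.121 to 0.203, so these values cannot tell whether same-numbered mice were handled together. The replicate block gave cotadutide mouse 5 a block of its own. With that block edgeR called 516 genes higher and 768 lower in place of 1373 and 1378, and 3 pathway genes higher in place of 7. Jak2 was then at -0.35 and no longer past the threshold. Without a filter on low counts 900 genes and 4 pathway genes were higher. Leaving out 1 mouse gave 42 to 2116 genes higher and 92 to 1724 lower, and 0 to 13 pathway genes higher and 0 to 11 lower. The cause of these differences was not tested. Of the other members, log2 fold changes without 1 mouse ran from -0.5 to -0.11 for Lepr (6 fits), -0.22 to -0.1 for Stat3, -0.49 to -0.01 for Socs1, 0.14 to 0.57 for Socs2, -0.77 to -0.17 for Socs3, 0.42 to 2.49 for Cish (0.71 by limma-voom) and -0.09 to -0.04 for Ptpn1. Of the 15 pathway genes past the threshold, 12 to 15 remained past it under other tools, scalings and filters, 8 with the replicate block, and 0 without vehicle mouse 1 or 2. None reversed. Lepr and Socs1 have too few counts for the stricter filter and gave no value there. Lepr also gave none without vehicle mouse 4, cotadutide mouse 1 or cotadutide mouse 2. These were its mice with the most counts, 20, 11 and 12. Its range above leaves those fits out, so the sign of its change without those mice is not known. Depth limits Lepr, at 3 to 20 counts per library, and Socs1, at 9 to 38.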
